A study of Mus musculus with 12 samples.

Results

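The 10 genes described here encode the killing machinery of cytotoxic lymphocytes, namely the granzymes Gzma, Gzmb, Gzmc, Gzmd, Gzme, Gzmf and Gzmk, perforin (Prf1), the granule membrane protein Nkg7 and the death ligand Fasl. They were chosen by gene symbol from the 23282 lines of a table of read counts, where each of the 10 had a line. Expression was measured in 12 tumors grown from MC38 cells, a mouse colon carcinoma line, implanted subcutaneously into the flank of wild-type female C57BL/6 mice aged 6 weeks. RNA came from whole tumor tissue on day 19, although the labels call the material tumor cells. The study asked whether a plant extract adds to the action of PD-1 blockade.

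Each of the 4 groups held 3 tumors. SFIH mice were injected intraperitoneally each day with 50 mg/kg SFIH, a fraction of Inula helenium (elecampane) root that is rich in sesquiterpene lactones. PD mice received 200 μg of anti-PD-1 antibody by the same route 2 times a week. Comb mice received both agents, and Con mice received vehicle and the isotype antibody IgG2a. SFIH mice also received IgG2a. All tumors came from 1 transplanted cell line in an immunocompetent host, so lymphocyte transcripts in them were those of the host's infiltrating cells mixed with tumor and stromal RNA. Whether the 3 tumors of a group came from separate mice was not stated in the labels, so p-values measure the spread between these tumors.

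Granzymes are serine proteases that cytotoxic T cells and natural killer cells store in granules and release onto a target cell. Perforin opens the target membrane to them, and Nkg7 takes part in moving the granules. In the mouse, Gzmb lies on chromosome 14 beside a row of related genes (Gzmc, Gzmd, Gzme, Gzmf, Gzmg and Gzmn), which lymphocytes turn on after strong or prolonged stimulation. Gzma and Gzmk lie together on chromosome 13. Fasl kills by another route, through the receptor Fas and caspases.

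The promoters of Gzmb and its neighbours Gzmc, Gzmd, Gzme and Gzmf are shown because these members sit in 1 cluster, so that their likeness can be read directly. Each runs 5′ to 3′ from 250 bases before to 50 bases after the gene's start, on the minus strand of RefSeq's GRCm38.p6, at chr14:56262285-56262584 (Gzmb), chr14:56234608-56234907 (Gzmc), chr14:56132544-56132843 (Gzmd), chr14:56120576-56120875 (Gzme) and chr14:56211358-56211657 (Gzmf). Capitals mark each match to the Runx motif, TGTGGT, on either strand. They also mark each match to the AP-1 motif, TGANTCA.
Gzmb: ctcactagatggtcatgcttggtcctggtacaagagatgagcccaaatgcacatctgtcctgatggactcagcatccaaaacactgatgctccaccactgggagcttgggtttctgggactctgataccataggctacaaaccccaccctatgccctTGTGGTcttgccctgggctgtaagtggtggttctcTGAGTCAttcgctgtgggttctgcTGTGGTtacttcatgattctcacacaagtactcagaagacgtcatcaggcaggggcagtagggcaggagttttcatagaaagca
Gzmc: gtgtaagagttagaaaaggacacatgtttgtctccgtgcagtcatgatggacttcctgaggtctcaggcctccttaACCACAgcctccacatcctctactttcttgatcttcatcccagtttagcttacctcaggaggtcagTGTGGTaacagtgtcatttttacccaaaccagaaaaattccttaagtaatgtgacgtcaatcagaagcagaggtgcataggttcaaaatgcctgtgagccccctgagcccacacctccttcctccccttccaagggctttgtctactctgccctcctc
Gzmd: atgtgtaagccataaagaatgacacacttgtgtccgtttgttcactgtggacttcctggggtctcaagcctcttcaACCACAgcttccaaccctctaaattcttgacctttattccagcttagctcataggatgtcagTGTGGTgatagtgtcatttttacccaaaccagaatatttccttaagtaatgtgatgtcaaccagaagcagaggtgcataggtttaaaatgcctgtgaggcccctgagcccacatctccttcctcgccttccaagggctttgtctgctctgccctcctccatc
Gzme: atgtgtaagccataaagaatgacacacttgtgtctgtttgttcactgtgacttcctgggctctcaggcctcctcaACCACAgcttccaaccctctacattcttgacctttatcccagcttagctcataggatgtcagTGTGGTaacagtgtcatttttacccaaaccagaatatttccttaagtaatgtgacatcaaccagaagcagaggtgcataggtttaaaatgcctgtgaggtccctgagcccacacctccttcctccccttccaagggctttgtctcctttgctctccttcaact
Gzmf: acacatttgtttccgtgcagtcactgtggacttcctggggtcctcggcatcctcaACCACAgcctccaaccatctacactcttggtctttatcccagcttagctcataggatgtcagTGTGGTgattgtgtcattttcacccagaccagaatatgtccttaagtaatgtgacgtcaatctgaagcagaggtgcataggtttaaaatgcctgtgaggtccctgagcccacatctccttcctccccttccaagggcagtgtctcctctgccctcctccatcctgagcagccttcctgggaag

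All 10 genes had a promoter in the RefSeq table. The Gzmd and Gzme promoters were 93.4% identical, and Gzmc was 82.7% identical to each of them. The Gzmb promoter shared between 43.6% and 48.1% of bases with those of Gzmc, Gzmd, Gzme, Gzmf, Gzmg and Gzmn, in the range of the unrelated chromosome 13 promoters of Gzma (46.8%) and Gzmk (48.1%). The Gzmn promoter was likewise only 46.7% to 49.4% identical to those of Gzmc, Gzmd, Gzme, Gzmf and Gzmg, although its levels followed those of Gzmd (r = 0.975 over the 12 tumors). Gzmb, Gzmc, Gzmd, Gzme and Gzmf each held 2 Runx matches, which 16.8% of 32851 promoters of this length held at least once. Gzma, Prf1 and Nkg7 held 1 each, while Gzmk and Fasl held none. In Gzmc, Gzmd, Gzme and Gzmf 1 match lay on each strand, and in Gzmb both lay on the strand of the gene. The AP-1 match, present in 7.81% of promoters, was found in Gzmb alone among the members. Searches on both strands for a T-box motif (GGTGTG, in 19% of promoters) found it in Gzmc, Gzme, Gzmk, Nkg7 and Fasl. A STAT-type GAS motif (TTCNNNGAA, in 8.3%) was found in Gzmb and Nkg7. No match to one of the 4 motifs overlapped a match to another in the members' windows. These are letter matches and no binding was measured.

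Likeness between these genes also limits how their reads could be assigned. The libraries were made from transcript 3′ ends and read as 75-base single reads. Of the 75-base windows in the last 500 bases of the Gzmd and Gzme transcripts, 57% and 60.3% lay within 2 mismatches of another granzyme transcript, against 20% for Gzmf and 0% for Gzmb, Gzmc and Gzma. The split of counts among Gzmd, Gzme and Gzmf is therefore uncertain, whereas Gzmc could be told from the other granzymes along the whole of this stretch.

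Totals were between 7870741 and 12261032 counts per tumor. Tumors are named by group and replicate number, and Comb 3 stood apart. Its summed level of 15 skeletal muscle markers was 7546 CPM (counts scaled to a library of 1000000), against 904 and 22.5 in the other Comb tumors, 205 in the highest PD tumor and between 22.3 and 32.0 in Con. Its mast cell markers (10 genes) summed to 1055 CPM, against 55.2 and 200 in the other Comb tumors and between 17.8 and 28.2 in Con. T cell markers (15 genes, Cd3d and Cd8a among them) summed to between 54.0 and 80.3 CPM for Con, 64.5 and 111 for SFIH, 95.1 and 216 for PD, and 82.3 and 534 for Comb, with the highest value again in Comb 3. Colon epithelium markers (11 genes) summed to 88.0 CPM in Comb 3, against 8.91 and 23.3 in the other Comb tumors and between 5.32 and 21.7 in the 9 tumors of the other groups. Because of these values, differences that involve Comb are also given without Comb 3 where its absence moved them most.

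Differences between groups were seen in some of the members. Levels of Gzmc, and in 5 of the 6 tumors those of Gzmd and Gzme, were lower after anti-PD-1 than in all tumors without it, while Nkg7 was higher in PD and Comb than in Con. Gzmf, Gzmb, Gzma, Prf1 and Fasl overlapped between Con and every treated group. Of the 10 genes, 9 passed the filter on low counts and were tested by edgeR's quasi-likelihood test over 13464 genes, in 1 fit of the 12 tumors. No member passed an adjusted p of 0.05 in any of 7 comparisons, and neither did any other gene (0% of the genes tested, in every comparison).

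**Figure D1:**
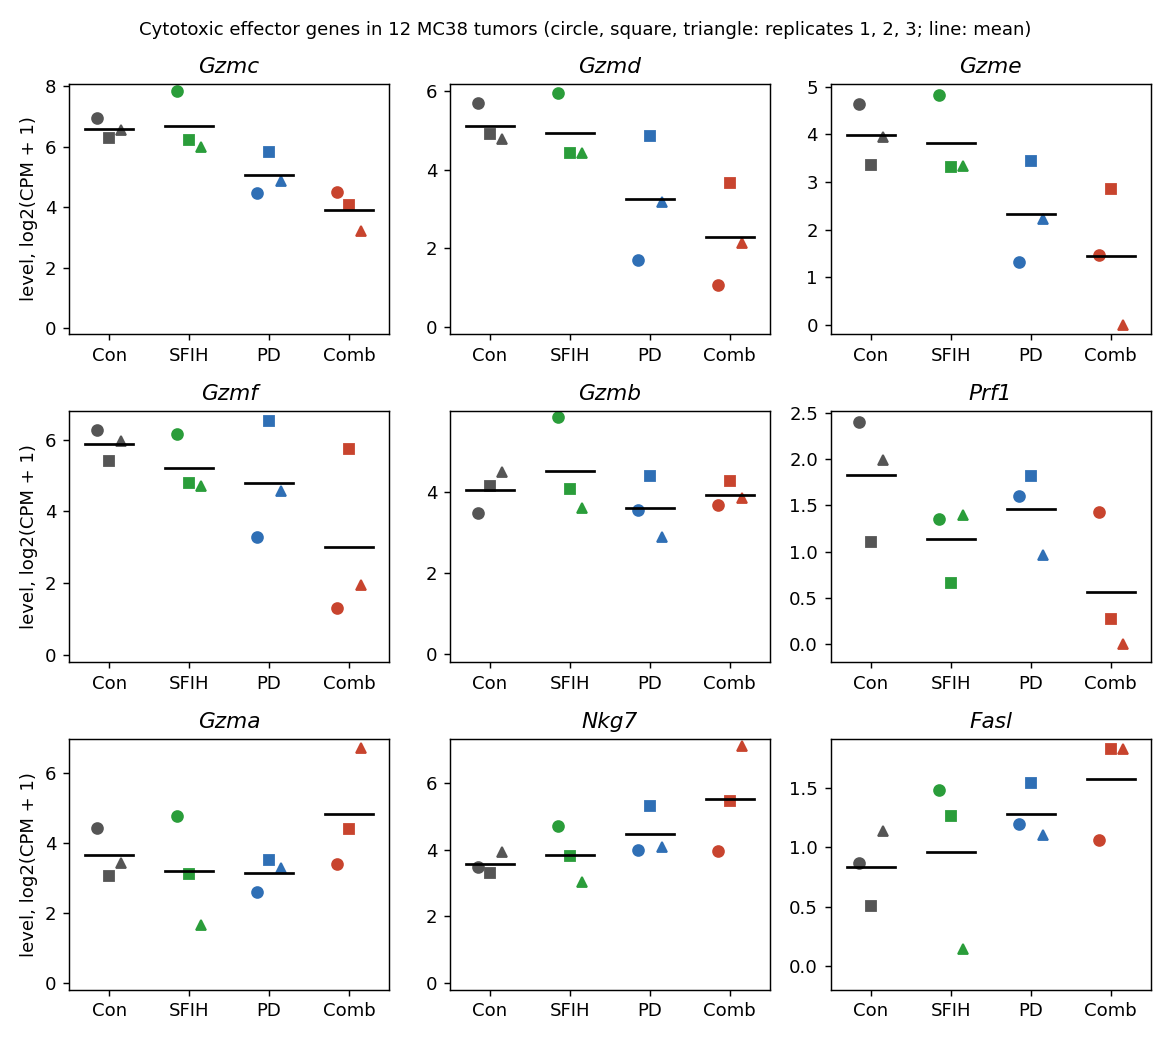
Level of each tested gene in each tumor, as log2(CPM + 1), by group; circles, squares and triangles are replicates 1, 2 and 3 and the line is the mean of the 3 tumors. For Gzmc all 6 tumors of PD and Comb lie under the 6 tumors of Con and SFIH, and for Nkg7 all PD and Comb tumors lie over those of Con.

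Gzmc, the member of the row whose 3′ end could be told from those of the others, gave the clearest difference. Its values were 121, 76.9 and 91.8 CPM for Con tumors, 229, 73.3 and 62.2 CPM for SFIH tumors, 21.1, 56.0 and 28.5 CPM for PD tumors and 21.5, 15.9 and 8.20 CPM for Comb tumors. Every tumor that received anti-PD-1 was below every tumor that did not, as were 1.95% of all genes tested. On the log2(CPM + 1) scale the mean level was 6.58 ± 0.33 for Con tumors, 6.68 ± 1.02 for SFIH tumors, 5.06 ± 0.70 for PD tumors and 3.92 ± 0.66 for Comb tumors (SD, n = 3 each). Con and SFIH did not differ beyond their spread, and 2 of the 3 Comb tumors lay below all PD tumors.

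In edgeR's test, Gzmc differed by -2.04 log2 units (SE 0.37, adjusted p = 0.0973) between the mean of PD and Comb and the mean of Con and SFIH. This was the 13th smallest p of the 13464 genes. The difference was -1.33 (SE 0.51, adjusted p = 0.9998) for PD against Con and -2.45 (SE 0.53, adjusted p = 0.0665) for Comb against Con. Comb against SFIH gave -2.74 (SE 0.54, adjusted p = 0.128), and Comb against PD gave -1.11 (SE 0.52, adjusted p = 0.282), and -0.88 without Comb 3. These comparisons share tumors and are not independent of each other.

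DESeq2, run as an alternative on the same counts, called Gzmc lower in Comb than in Con (-2.43, adjusted p = 0.000277), in Comb than in SFIH (-2.72, adjusted p = 9.28e-05) and with anti-PD-1 than without (-2.03, adjusted p = 2.71e-05). By that tool 2.9%, 0.752% and 1.57% of genes were called lower in the same comparisons. Without Comb 3 the same 3 calls by DESeq2 had sizes of -2.20, -2.49 and -1.91 (adjusted p = 0.0189, 0.0268 and 0.000937), where 5.43%, 0.69% and 7.3% of all genes were called in either direction. Gzmc was the 1 member that DESeq2 called in all 3 comparisons both with and without Comb 3.

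Gzmd and Gzme moved with Gzmc in most tumors. Gzmd was at 50.8, 28.8 and 26.3 CPM for Con tumors, 60.8, 20.4 and 20.7 CPM for SFIH tumors, 2.26, 28.1 and 8.05 CPM for PD tumors and 1.09, 11.7 and 3.37 CPM for Comb tumors. Gzme was at 23.8, 9.26 and 14.3 CPM for Con tumors, 27.2, 8.91 and 9.11 CPM for SFIH tumors, 1.51, 9.78 and 3.66 CPM for PD tumors and 1.78, 6.20 and 0 CPM for Comb tumors. For both genes all Comb tumors lay below all Con tumors, as did 22.2% of genes, and 5 of the 6 anti-PD-1 tumors lay below all 6 others. PD 2 was the exception.

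With anti-PD-1 against none, Gzmd differed by -1.83 (SE 0.66, adjusted p = 0.166, edgeR) and Gzme by -1.89 (SE 0.74, adjusted p = 0.197). DESeq2 called Gzmd (-1.81, adjusted p = 0.0447) in this comparison and in Comb against Con (-2.40, adjusted p = 0.0480). It did not call Gzme with all 12 tumors (adjusted p = 0.0832), but called it without Comb 3, where its count was 0 (-1.59, adjusted p = 0.0281). Without that tumor the values of Gzmd were close to those with it (-1.71 for anti-PD-1 against none and -2.19 for Comb against Con) but no longer passed the threshold (adjusted p = 0.183 and 0.287, DESeq2).

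Gzmf spread more widely within the treated groups. It was at 75.8, 41.2 and 61.6 CPM for Con tumors, 70.8, 26.6 and 25.2 CPM for SFIH tumors, 8.71, 91.4 and 22.9 CPM for PD tumors and 1.49, 52.2 and 2.82 CPM for Comb tumors. PD 2 held more than any tumor of the other groups, and 4 of the 6 anti-PD-1 tumors lay below all 6 others. Its difference for anti-PD-1 against none was -0.60 (SE 0.80, adjusted p = 0.719), and no tool called it. Leaving out 1 tumor at a time gave between -2.14 (without Comb 2) and -0.29 (without SFIH 1), with -0.36 without Comb 3 and -0.32 without Comb 1.

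Inside PD and inside Comb, but not inside Con or SFIH, the tumor with the least skeletal muscle transcript held the most Gzmd and Gzmf. PD 1, Comb 1 and Comb 3, with the most muscle transcript (205, 904 and 7546 CPM), held the lowest values of Gzmd and Gzmf. PD 2 and Comb 2, the tumors with the least, held 16.1 and 22.5 CPM of it. SFIH 1 had the most in its group (79.9 CPM, against 33.1 and 31.9) and also the most Gzmd and Gzmf of that group. Con 3 had the least in its group (22.3 CPM, against 29.6 and 32.0), yet it held the least Gzmd and not the most Gzmf. All 15 muscle markers had positive estimates for anti-PD-1 against none (median 4.68, or 3.14 without Comb 3). DESeq2 called 11 of them, or 3 without Comb 3, beside 7.74% of all genes called higher, or 5.38% without Comb 3. The part of muscle RNA in the values of these granzymes was not tested.

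The 2 further genes of the row that passed the filter, which are not members, followed Gzmd. For anti-PD-1 against none Gzmg differed by -1.90 (SE 0.72, adjusted p = 0.184) and Gzmn by -1.18 (SE 0.67, adjusted p = 0.380). For both, 5 of the 6 anti-PD-1 tumors were below all others and PD 2 was again the exception. Of their 75-base windows, 22.8% for Gzmg and 18.8% for Gzmn lay within 2 mismatches of another granzyme transcript, most often that of each other. Reads may thus be shared inside the row, so Gzmg and Gzmn are not taken as separate evidence.

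Gzmb, the granzyme best known as a trigger of caspases in target cells, showed no detectable difference after anti-PD-1. Anti-PD-1 against none gave -0.43 (SE 0.42, adjusted p = 0.615, edgeR), and 0.062 without SFIH 1. With all 12 tumors the sign was that of Gzmc, Gzmd, Gzme and Gzmf, and whether Gzmb differed from them was not tested. Its values were 10.1, 16.6 and 21.5 CPM for Con tumors, 56.1, 15.8 and 11.2 CPM for SFIH tumors, 10.6, 19.9 and 6.38 CPM for PD tumors and 11.7, 18.1 and 13.4 CPM for Comb tumors. SFIH 1 stood above the rest, and all 3 Comb tumors lay inside the range of Con. SFIH 1, PD 2 and Comb 2 were the highest of their groups for Gzmb as for Gzmd and Gzme. Over the 12 tumors Pearson's r of Gzmb was 0.52 with Gzmc, 0.52 with Gzmd and 0.50 with Gzme, against 0.28 with Gzma and 0.22 with Nkg7 (0.58, 0.53, 0.59, 0.50 and 0.44 without Comb 3), given as a description of tumors that share treatments and depth. Comb against Con gave 0.14 (SE 0.59, adjusted p = 0.888), which turned to -0.16 without TMM scaling, and PD against Con gave -0.25 (SE 0.59, adjusted p = 0.9998). SFIH against Con gave 0.75 (SE 0.59, adjusted p = 0.9998) and changed sign when SFIH 1 was left out (-0.24). A difference in Gzmb was not detectable beyond the spread between tumors in any comparison.

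Gzma, known for a killing route that does not need caspases, was high in 1 tumor. It was at 20.5, 7.28 and 9.68 CPM for Con tumors, 26.3, 7.67 and 2.15 CPM for SFIH tumors, 5.05, 10.3 and 8.68 CPM for PD tumors and 9.41, 19.9 and 104 CPM for Comb tumors. Comb 3 lay far above the 11 others, and the other Comb tumors lay within the range of Con. Comb against Con gave 2.25 (SE 0.99, adjusted p = 0.183), and 0.42 without that tumor. Comb against PD gave 2.79 (SE 1.01, adjusted p = 0.243), and 0.97 without it. Anti-PD-1 against none gave 0.91 (SE 0.68, adjusted p = 0.511), and -0.0070 without it. The skeletal muscle, mast cell and natural killer cell markers of that tumor were also the highest of the 12, and their part in the Gzma value was not tested.

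Gzmk, best known from memory-type T cells, had a count of 0 in all 12 tumors. A count of 0 allows up to 3 counts, or between 0.245 and 0.381 CPM at these depths. These floors cover counting error only. Gzmk was not tested and is only known to be listed at 0. Gzmm, a further granzyme, had between 0 and 9 counts per tumor and was not tested either.

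The make-up of the granzyme counts shifted with these genes. Counts from 3′ ends do not grow with transcript length, so shares of counts can be set side by side within a tumor. The genes Gzmc, Gzmd, Gzme, Gzmf, Gzmg and Gzmn together took 91.8%, 89.1% and 88.1% of all granzyme counts for the Con tumors and 84.7%, 86.8% and 91.4% for the SFIH tumors. Their share was 69.6%, 88.0% and 82.7% for PD tumors, and 55.7%, 72.3% and 15.6% for Comb tumors. All Comb tumors, PD 1 and PD 3 lay below every Con and SFIH tumor.

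In Comb 3 Gzma alone took 74.6% of the granzyme counts (1138 of 1525, Wilson 95% interval 72.4% to 76.7%, which covers counting error only), against 19.8% and 14.2% in the other Comb tumors and at most 5.47% in Con. Gzmb took 6.14 ± 2.99% for Con tumors, 8.81 ± 1.61% for SFIH tumors, 11.9 ± 7.50% for PD tumors and 15.7 ± 7.84% for Comb tumors (SD, n = 3). The shares in a tumor sum to the whole, and the mean Gzmb level on the log2(CPM + 1) scale was 4.04 for Con tumors, 4.50 for SFIH tumors, 3.60 for PD tumors and 3.92 for Comb tumors. The Gzmb share was 24.5%, 12.9% and 9.64% in Comb 1, Comb 2 and Comb 3.

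**Figure D2:**
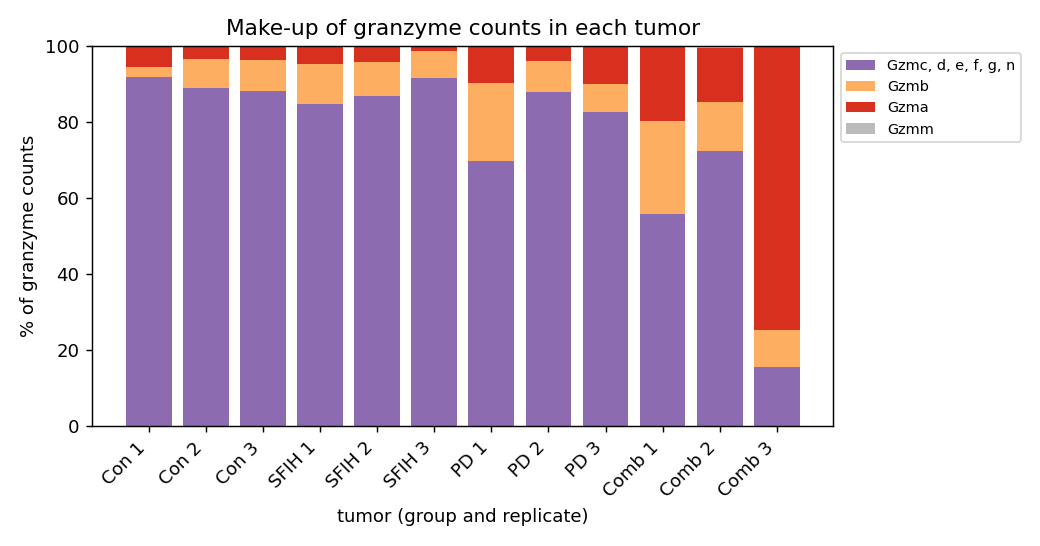
Share of all granzyme counts in each tumor, in percent, taken by the genes from Gzmc to Gzmn, by Gzmb, by Gzma and by Gzmm. Those genes take 88.1% to 91.8% in Con and 15.6% to 72.3% in Comb, and Gzma takes 74.6% in Comb 3.

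Perforin was near the detection limit. Prf1 had 47, 11 and 30 counts for Con tumors, 19, 7 and 16 for SFIH tumors, 19, 20 and 9 for PD tumors and 17, 2 and 0 for Comb tumors. In 2 of the 3 Comb tumors it was at or under the floor of 3 counts, while Comb 1 was inside the range of Con. Its mean level was 1.83 ± 0.67 in Con and 0.56 ± 0.76 in Comb (SD, n = 3). Comb against Con gave -2.01 (SE 1.0, adjusted p = 0.232, edgeR), and -1.45 without Comb 3. With all 12 tumors no comparison was called for Prf1. edgeR called Prf1 lower in Comb than in Con and than in PD when Comb 1 was left out (-4.36 and -3.85, adjusted p = 0.0188 and 0.0460). Both remaining Comb tumors were then at or under the floor, so these fitted sizes depend on the prior count. In those fits 28.5% and 15.2% of all genes were called.

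Nkg7 had the opposite direction to Gzmc, Gzmd and Gzme. It was at 10.3, 8.84 and 14.5 CPM for Con tumors, 25.2, 13.0 and 7.16 CPM for SFIH tumors, 14.9, 39.1 and 16.0 CPM for PD tumors and 14.7, 43.3 and 139 CPM for Comb tumors. All 3 PD tumors and all 3 Comb tumors were above all Con tumors, although the lowest PD tumor (14.9 CPM) and the lowest Comb tumor (14.7 CPM) were close to the highest Con tumor (14.5 CPM). Of all genes 5.76% lay wholly above Con in PD and 7.6% in Comb. SFIH 1 was above 3 of the 6 anti-PD-1 tumors.

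For anti-PD-1 against none, Nkg7 differed by 1.88 (SE 0.55, adjusted p = 0.109, edgeR), and for Comb against Con by 2.98 (SE 0.81, adjusted p = 0.0714). PD against Con gave 1.19 (SE 0.77, adjusted p = 0.9998) and Comb against PD gave 1.78 (SE 0.77, adjusted p = 0.265). Without Comb 3 the edgeR values were 1.19 for anti-PD-1 against none, 1.59 for Comb against Con and 0.40 for Comb against PD (adjusted p = 0.139, 0.187 and 0.850). DESeq2 called Nkg7 in 3 comparisons, namely anti-PD-1 against none (1.91, adjusted p = 0.00859), Comb against Con (3.02, adjusted p = 0.00179) and Comb against SFIH (2.62, adjusted p = 0.0120). By DESeq2 7.74%, 12% and 7.87% of all genes were called higher in these comparisons. Without Comb 3, the anti-PD-1 call held (1.21, adjusted p = 0.0309), Comb against Con gave 1.62 (adjusted p = 0.0692) and Comb against SFIH gave 1.22 (adjusted p = 0.369).

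Fasl, the ligand of the death receptor Fas, gave few counts. It had 9, 4 and 12 counts for Con tumors, 22, 17 and 1 for SFIH tumors, 12, 15 and 11 for PD tumors and 11, 25 and 28 for Comb tumors. The groups overlapped throughout. Comb against Con gave 1.67 (SE 0.78, adjusted p = 0.210), or 1.36 without Comb 3, and anti-PD-1 against none gave 1.10 (SE 0.55, adjusted p = 0.312, edgeR). The highest values were in Comb 2 and Comb 3, and no tool or left-out tumor gave a call.

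**Figure D3:**
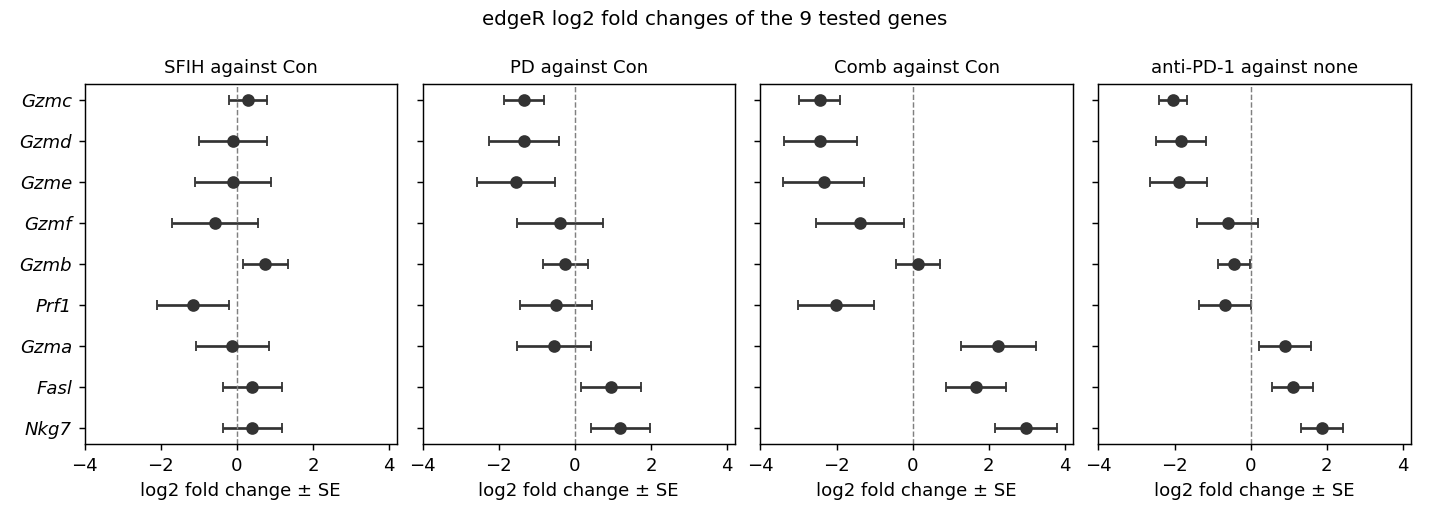
log2 fold changes (points) with their standard errors (bars) from edgeR for the 9 tested genes, in SFIH, PD and Comb against Con and in anti-PD-1 against none. With anti-PD-1 Gzmc lies at -2.04 and Nkg7 at 1.88, while all 9 genes lie between -1.15 and 0.75 in SFIH against Con.

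No member was called for SFIH on its own. Estimates for SFIH against Con were between -1.15 (Prf1) and 0.75 (Gzmb), and not 1 of the 9 reached an unadjusted p of 0.05, against 1.2% of all genes higher and 1.05% lower. For every member the SFIH and Con tumors overlapped, while 7.55% of all genes lay wholly higher in SFIH and 8.85% wholly lower. In PD against Con 1 member, Gzmc, reached an unadjusted p of 0.05 by edgeR's test across all genes, where 2.31% of genes did so in the higher and 1.68% in the lower direction. Gzmc was also the member whose PD tumors all lay below Con, as 14.8% of genes did.

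In Comb against Con 5 of the 9 members reached an unadjusted p of 0.05, Gzma and Nkg7 higher and Gzmc, Gzmd and Gzme lower, beside 18% of all genes higher and 7.3% lower. In Comb against SFIH the count was 4 (Gzma, Gzmc, Gzmd and Nkg7), beside 14.8% higher and 4.22% lower. In Comb against PD it was 2 (Gzma and Nkg7), beside 12.9% higher and 5.11% lower. For anti-PD-1 against none it was 4 (Gzmc, Gzmd, Gzme and Nkg7), beside 13.4% higher and 5.32% lower. In the higher direction the members' counts, 1 or 2 of 9, were near these background shares. In the lower direction the count was 0 of 9 in Comb against PD. It was 2 or 3 of 9 in the other 3 comparisons, above their shares, but Gzmd and Gzme may share reads.

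Without Comb 3 the count in Comb against Con fell from 5 to 2 (Nkg7 higher and Gzmc lower), beside 11.4% of all genes higher and 7.43% lower. The estimate of Gzma there was 0.42 in place of 2.25, whereas those of Gzmd and Gzme were -2.25 and -1.78 and narrowly missed 0.05. In Comb against SFIH it fell from 4 to 1 (Gzmc), beside 7.16% higher and 3.63% lower, with Gzmd at -2.15. In Comb against PD it fell from 2 to 0, beside 4.11% higher and 4.9% lower. For anti-PD-1 against none it stayed at 4, Nkg7 higher and Gzmc, Gzmd and Gzme lower, beside 11.6% higher and 7.87% lower. The lower counts in Comb against Con and Comb against SFIH were then 1 of 9 each, in fits with 1 tumor fewer.

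Comb against PD had no member without overlap, where 4.25% of genes lay wholly higher and 8.42% wholly lower. In Comb against SFIH, Gzmc, Gzmd and Gzme lay wholly lower, as did 14.9% of genes, and none of the members wholly higher, as 4.65% did. DESeq2 called no member in SFIH against Con, PD against Con, Comb against PD or the interaction, and 0.0298%, 0.0447%, 3.23% and 0.00745% of all genes there.

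The interaction, which asks whether the difference made by anti-PD-1 was another with SFIH than without it, was called for no member, and 2% of genes higher and 0.557% lower reached an unadjusted p of 0.05. Gzmc gave -1.41 (SE 0.72, adjusted p = 0.894), or -1.17 without Comb 3, and Nkg7 1.37 (SE 1.08, adjusted p = 0.894). Gzma gave 2.91 (SE 1.37, adjusted p = 0.894), which was 1.08 without Comb 3. For Nkg7 the value without that tumor was -0.0074.

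Leaving out Comb 1, which had the lowest T cell markers of its group, changed more calls by edgeR than any other omission. Gzmc, Gzma, Nkg7 and Prf1 were then called in Comb against Con, 4 members in all, beside 28.5% of all genes. Gzma, Nkg7 and Prf1 were called in Comb against PD (15.2% of all genes), and Gzma, Gzmc and Nkg7 in Comb against SFIH (22.5%). Gzmc and Nkg7 were called in anti-PD-1 against none (-2.14 and 2.13, adjusted p = 0.00974 and 0.0114), beside 17.1% of all genes. The fit then rested on Comb 2 and Comb 3.

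Cytotoxic genes in whole tumors also vary with the number of lymphocytes, and in bulk RNA fewer cells of a type and less RNA per cell cannot be told apart. Of 15 T cell markers, 14 had positive estimates for anti-PD-1 against none, 13 with an unadjusted p under 0.05, and DESeq2 called 12, all higher. In this comparison DESeq2 called 7.74% of all genes higher and 1.57% lower, and without Comb 3 5.38% and 1.93%, which are the shares to set beside each list that follows. The median of the T cell markers was 1.63, against -0.03 over all genes. The median was 1.19 without Comb 3, and DESeq2 then called 10 of them. Cd2 differed by 2.35 (SE 0.48, adjusted p = 0.0973, edgeR), Icos by 1.73 (SE 0.35) and Cd3d by 1.96 (SE 0.52). Cd8a, the marker of cytotoxic T cells, had 64, 42 and 91 counts for Con tumors, 96, 63 and 51 for SFIH tumors, 84, 175 and 94 for PD tumors and 44, 183 and 168 for Comb tumors.

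The levels were also set against the mean level of the T cell markers in the same tumor. The Gzmc level exceeded the T cell level by 4.56 ± 0.35 log2 units for Con tumors, 4.50 ± 0.60 for SFIH tumors, 2.25 ± 0.22 for PD tumors and 0.62 ± 1.59 for Comb tumors (SD, n = 3). The range was 4.12 to 5.19 over the Con and SFIH tumors and -0.99 to 2.50 over the PD and Comb tumors. The distance of Nkg7 from the T cell level was 1.56 ± 0.10 for Con tumors, 1.67 ± 0.46 for SFIH tumors, 1.66 ± 0.34 for PD tumors and 2.22 ± 0.65 for Comb tumors. Gzmb stood 2.01 ± 0.46 above the T cell level for Con tumors, 2.32 ± 0.76 for SFIH tumors, 0.79 ± 0.60 for PD tumors and 0.62 ± 0.87 for Comb tumors. For Gzmb too the ranges did not meet, at 1.49 to 3.18 over the Con and SFIH tumors and -0.35 to 1.35 over the PD and Comb tumors. Gzmd and Gzme were separated in the same way, whereas Gzmf was not. The mean T cell level was 2.02 for Con, 2.18 for SFIH, 2.81 for PD and 3.30 for Comb tumors, and it enters each of these differences. With Comb 3 left out, the Comb means were 1.43 for Gzmc, 1.86 for Nkg7 and 1.10 for Gzmb. These differences are a description and were not tested.

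**Figure D4:**
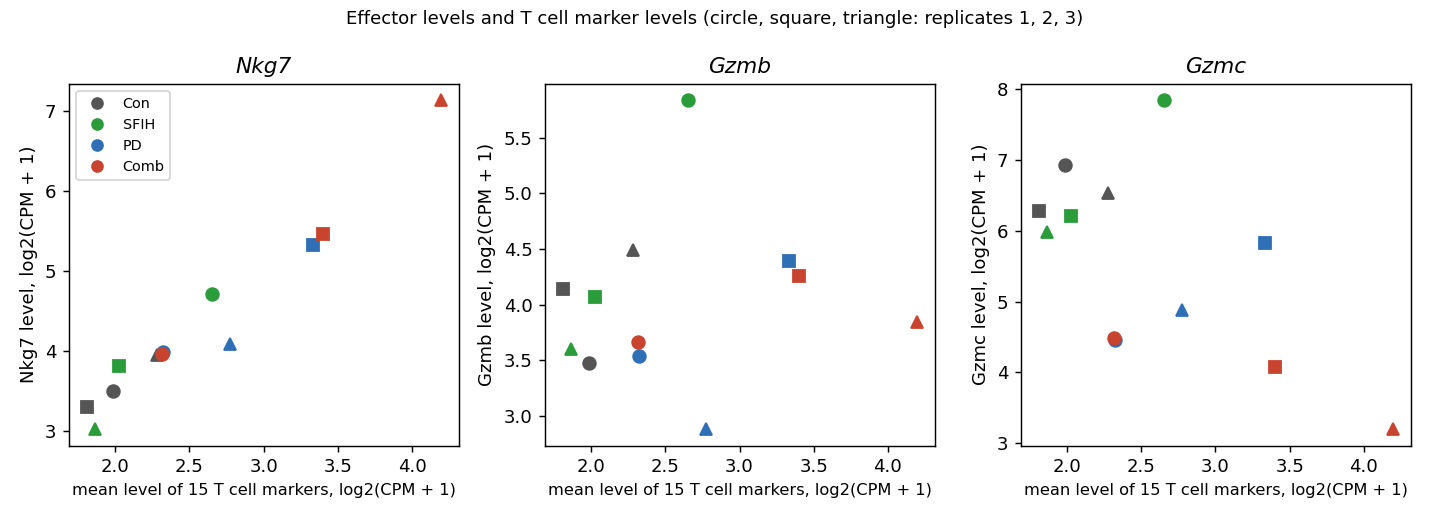
Level of Nkg7, Gzmb and Gzmc against the mean level of 15 T cell markers in the same tumor, both as log2(CPM + 1); colors are groups and shapes are replicates 1, 2 and 3. Nkg7 runs up with the T cell markers through all groups, while all PD and Comb tumors lie under all Con and SFIH tumors for Gzmc.

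Natural killer cells carry many of the same granule proteins. Their 12 markers summed to between 135 and 172 CPM in Con and to 193, 401 and 1255 CPM in Comb. Much of the Comb sums was Tyrobp, which myeloid cells also express (81.2, 239 and 1037 CPM in Comb). Without it the sums were between 95.7 and 105 CPM in Con and 112, 161 and 218 CPM in Comb. Of 11 tested, 7 had positive and 4 negative estimates for anti-PD-1 against none. All 7 positive ones had an unadjusted p under 0.05 and DESeq2 called 5, or 3 without Comb 3. Klrk1, an activating receptor, differed by 1.55 (SE 0.43, adjusted p = 0.0995, edgeR), and by 1.15 without Comb 3. Ncr1, the defining receptor of these cells, had only 14, 4 and 14 counts for Con tumors, 55, 13 and 2 for SFIH tumors, 7, 4 and 3 for PD tumors and 12, 21 and 34 for Comb tumors. Mast cell markers had a median of 3.27 for anti-PD-1 against none over 6 tested genes, and 2.14 without Comb 3. Plasmacytoid dendritic cells can also carry Gzmb, and their 9 markers summed to between 444 and 499 CPM in Con and between 454 and 490 CPM in Comb. Most of that sum came from the widely expressed Bst2 and Tcf4, whereas Siglech, the defining receptor, had 12, 4 and 4 counts in Con and 6, 62 and 97 in Comb, and DESeq2 called 4 of the 9 higher in Comb than in Con, or 1 without Comb 3, beside 12% of all genes called higher and 5.43% called in either direction without Comb 3. The part of natural killer cells, mast cells and dendritic cells in the granzyme values was not tested.

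Genes that store and release granules had mostly positive estimates. Of 15 tested, 13 were positive for anti-PD-1 against none, with a median of 0.61, and DESeq2 called 3 of them, all higher. Without Comb 3, 12 were positive, the median was 0.32 and DESeq2 again called 3. Srgn, the proteoglycan on which granzymes are packed, differed by 2.04 (SE 0.45, adjusted p = 0.0973, edgeR). Ctsc, the protease that activates granzymes, differed by 1.43 (SE 0.34, adjusted p = 0.0980), and Rab27a, needed to dock granules, by 1.39 (SE 0.45, adjusted p = 0.139). Without Comb 3 these values were 1.44, 1.10 and 0.89. Srgn had 759, 530 and 792 counts in Con and 1189, 3017 and 9255 in Comb, and many myeloid cells also express Srgn and Ctsc.

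Among 5 tested protease inhibitors of the serpin family, DESeq2 called Serpina3g alone for anti-PD-1 against none (2.21, adjusted p = 0.00216, beside 2.18 with an adjusted p of 0.0980 by edgeR). The DESeq2 value of Serpina3g was 1.34 (adjusted p = 0.00482) without Comb 3. Whether Serpina3g acts on granzymes was not tested. Serpinb9, the inhibitor of granzyme B, gave 0.31 (SE 0.17, adjusted p = 0.377). Of 13 genes of the death ligand and receptor pathway, 9 had positive estimates and DESeq2 called 3, Casp8 (0.67), Gsdmd (1.37) and Ltb (2.47). Their median was 0.21. Fas itself gave 0.88 (SE 0.31, adjusted p = 0.156, edgeR). Without Comb 3 Fas gave 0.50, and DESeq2 called Casp8 (0.62) and Gsdmd (0.93) but not Ltb (1.34).

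Regulators of these genes also had mostly positive estimates. Of 13 transcription factors of cytotoxic cells, 12 were positive for anti-PD-1 against none and DESeq2 called 4, among them Irf4 (2.96), Stat4 (1.89) and Zeb2 (0.64). Without Comb 3 it called 1, Stat4 (1.39). Of 11 cytokine signals 10 were positive and DESeq2 called 7, all higher. Without Comb 3, 11 of 12 tested were positive and it again called 7. Il18r1, a receptor for interleukin 18, differed by 2.59 (SE 0.39, adjusted p = 0.0973, edgeR), and Ifng, a main product of activated lymphocytes, by 2.36 (SE 0.63, adjusted p = 0.0980). Without Comb 3 these were 2.35 and 2.17. Ifng had 8, 2 and 14 counts for Con tumors, 29, 7 and 11 for SFIH tumors, 17, 44 and 19 for PD tumors and 14, 92 and 92 for Comb tumors. Of the 9 tested members 6 had negative estimates in the same comparison, Gzmb and Prf1 beside the 4 from Gzmc to Gzmf.

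Genes with the pattern most like that of a member were found by Pearson's r of the levels over the 12 tumors, among 10595 genes with at least 50 counts on average. For Nkg7 these were Ms4a4b (r = 0.986), Selplg, Gimap4, Samsn1 and Glrx (r = 0.977). For Gzma they were Mcur1 (r = 0.938), 5730508B09Rik, Rhoh, Nipa2 and Tmem206 (r = 0.904). For Prf1 they were Myof (r = 0.911), Syne2, Snhg9, Elmsan1 and Fnbp1l (r = 0.897). For Gzmb the likeness was lower, with Ostm1 (r = 0.824), Acer3, Mmd, Pilra and Ndfip2 (r = 0.780). Without Comb 3 the r of these genes was between 0.945 and 0.966 for Nkg7, 0.793 and 0.852 for Gzma, 0.856 and 0.908 for Prf1, and 0.782 and 0.933 for Gzmb. These values describe 12 tumors that share treatments and depth, are the highest of many, and carry no test.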

How the data were processed

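Processing was done on the table of read counts per gene symbol that the authors deposited, with 1 column per tumor. Per the labels, the authors extracted RNA from tumor tissue with TRIzol, made QuantSeq 3′ mRNA-Seq libraries and sequenced them on a NextSeq 500 as single-end reads of 75 bases. The aligner, counter, genome build and annotation are not given in the sources used here. The values were whole numbers that sum to different totals, and no normalization was found in them. Columns were assigned to tumors from their names.

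Counts were tested in R 4.3.3 with edgeR 4.0.16 (filterByExpr, TMM, glmQLFit and glmQLFTest, two-sided), with 1 coefficient per group, and Benjamini-Hochberg adjustment ran over 13464 genes with a threshold of 0.05. Alternatives were DESeq2 1.42.0, scaling without TMM and by the upper quartile, no filter, a mean of at least 50 counts, only the groups compared, a block for replicate number and leaving out each tumor. DESeq2 without Comb 3, the lists and likeness without Comb 3 and the natural killer cell sum without Tyrobp were added after seeing the data. Levels are log2(CPM + 1) without TMM. The standard error was taken from the F statistic. The scripts were tested on simulated data.

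All members were named, with up to 4 genes of each list per comparison by smallest edgeR p, the 5 genes most like each of Gzma, Gzmb, Prf1 and Nkg7 and, chosen after their values were seen, Cd8a, Ncr1, Siglech, Tyrobp, Bst2, Tcf4 and Eomes. The members and the lists were chosen with earlier results of these data known. Promoters came from RefSeq (GRCm38.p6) and transcripts from GENCODE.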

Additional observations from a re-analysis of the deposited data

How the results depend on the processing

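Of 940 member fold changes recomputed under the alternatives, 875 kept their direction and their side of the threshold, 25 passed it and 40 changed sign. edgeR called 0 members in each of the 7 comparisons with all 12 tumors, whatever the scaling or filter, and 0 when only the groups compared were fitted. By DESeq2 the counts were 3 in Comb against Con, 2 in Comb against SFIH and 3 in anti-PD-1 against none, beside 1998, 1157 and 1250 of 13425 genes, and by DESeq2 without Comb 3 1, 1 and 3, beside 5.43%, 0.69% and 7.3% of all genes. Leaving out 1 tumor at a time gave between 0 and 4 members in Comb against Con, 0 and 3 in Comb against PD, 0 and 3 in Comb against SFIH and 0 and 2 in anti-PD-1 against none, each highest count without Comb 1, where 28.5%, 15.2%, 22.5% and 17.1% of all genes were called. The cause of the differences between the tools was not tested. With the replicate number as a block, 0 members were called in every comparison. Of 18 pairs of tumors with the same number, 6 correlated above 0.1 (r between -0.235 and 0.361). Pairs with unlike numbers also did so, such as Con 3 with SFIH 1 (r = 0.277). These values do not settle whether the numbers pair the tumors. With other settings, Gzmb in Comb against Con was -0.16 without TMM, and by DESeq2 without Comb 3 the interaction was 0.20 for Prf1 and 0.10 for Gzmf. Signs also changed when single tumors were left out, all in values that no test called. For SFIH against Con the ranges were -0.11 to 0.91 (Fasl), -1.37 to 0.47 (Gzma), -0.79 to 0.35 (Gzme), -0.77 to 0.28 (Gzmd), -0.50 to 0.57 (Gzmc), -0.24 to 1.10 (Gzmb) and -0.14 to 0.71 (Nkg7). In PD against Con the ranges were -0.82 to 0.039 (Gzma), -1.87 to 0.094 (Gzmf) and -0.85 to 0.079 (Gzmb). In Comb against Con the range was -0.095 to 0.36 (Gzmb). In Comb against PD the ranges were -2.48 to 0.22 (Gzme), -2.30 to 0.31 (Gzmd) and -4.07 to 0.48 (Gzmf). In Comb against SFIH the range was -0.97 to 0.38 (Gzmb). With anti-PD-1 against none the ranges were -0.0070 to 1.53 (Gzma) and -0.74 to 0.062 (Gzmb). For the interaction the ranges were -0.20 to 0.84 (Fasl), -2.69 to 0.21 (Prf1), -2.38 to 0.31 (Gzme), -2.20 to 0.41 (Gzmd), -3.50 to 1.05 (Gzmf), -0.72 to 0.64 (Gzmb) and -0.0074 to 2.02 (Nkg7). Counts of Prf1 and Fasl were mostly under 30 per tumor, which limits what this depth can show for them.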
